A study of Mus musculus with 2 samples.

Results

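Islet and Pou4f genes encode LIM-homeodomain and POU-homeodomain transcription factors of retinal ganglion cells, the neurons that send the axons of the optic nerve. The 5 genes Isl1, Isl2, Pou4f1, Pou4f2 and Pou4f3 were examined for intervals of ISL1 CUT&Tag, an assay in which a transposase is brought by antibodies to the protein under study and tags the DNA around it. Every interval overlapping a gene span extended by 50 kb on both sides was taken, which gave 31 of the 123923 intervals of replicate 1 and 37 of the 158881 intervals of replicate 2 on chromosomes 1 to 19, X and Y. The 5 windows did not overlap each other. Both samples were wild-type mouse retina taken at E13.5 and probed with antibody against ISL1, and they formed 1 group. A control antibody, a mutant retina and another stage were not analysed here. Rabbit antibodies to ISL1 from a pair of suppliers are named, with no word on which was used for which replicate, and separate animals or litters are not stated for the replicates. The nuclei came from whole retina, so occupancy in few cells and weaker occupancy in many cells cannot be told apart, and the assay gives no expression with which to check the cell types present.

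ISL1 and POU4F2 act downstream of the proneural factor ATOH7 in newborn ganglion cells, where they switch on overlapping sets of differentiation genes. ISL2 and POU4F1 come later and mark subsets of ganglion cells, and POU4F3 is a related POU factor of ganglion cells that is best known from the hair cells of the inner ear. The series asks which genes ISL1 may control directly, and here the question is put to the gene of ISL1 itself, its paralogue and the POU4F factors.

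Around these genes 5 of the 31 intervals of replicate 1 and 5 of the 37 of replicate 2 overlapped the other list. Both shares were above the 11.5% and 8.91% of the whole lists. They rest on the same 5 overlapping pairs counted from each side, too few to set the members apart from the whole lists. All 5 genes had intervals in both lists, as did 98.9% and 99.3% of protein-coding genes in replicates 1 and 2. A shared peak, counted wherever an interval of one list touched an interval of the other by 1 bp or more, was found 5 times: once near Isl1, 2 times near Isl2, once near Pou4f1 and once near Pou4f2. Pou4f3 had none. Of all 21887 protein-coding genes, 55.4% had at least 1 shared peak within 50 kb, and of the 11848 with a span under 20 kb, as all members have, 50.3% did. The members' 4 of 5 stands beside these shares on only 5 genes, and their median of 1 shared peak equalled the median of all protein-coding genes. Isl2 had 2 shared peaks, and 2 or more were found for 23.8% of all protein-coding genes. In 3 of the 5 genes a shared peak had a maximum signal above 1 in both lists, which 41.5% of all protein-coding genes had, the maximum signal being the highest coverage in an interval as the authors deposited it. With 2 samples of 1 group no test was possible.

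**Figure D1:**
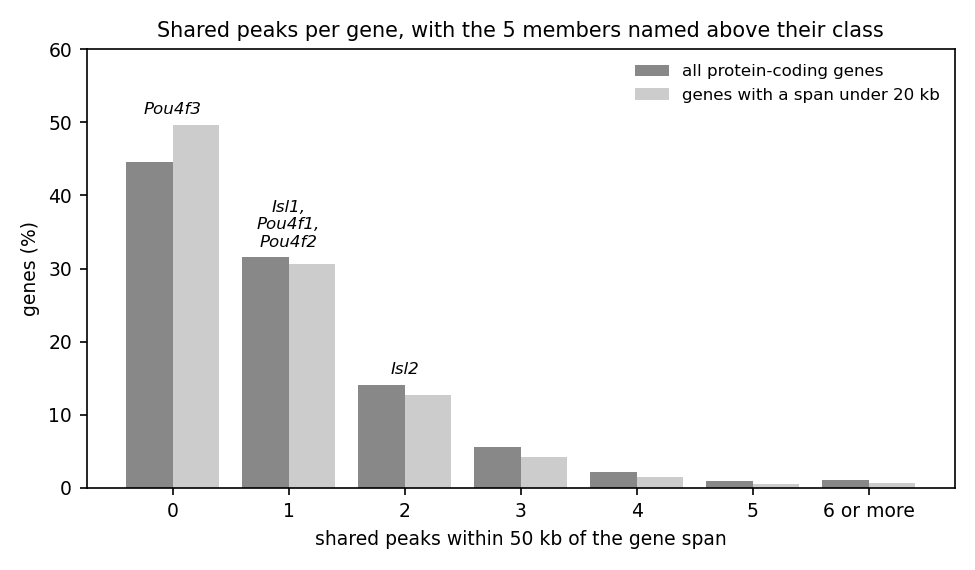
Shared peaks within 50 kb of the gene span (horizontal axis) against the percentage of genes (vertical axis), for all protein-coding genes (dark bars) and those with a span under 20 kb (light bars). The members stand above their class: Pou4f3 at 0, Isl1, Pou4f1 and Pou4f2 at 1, and Isl2 at 2.

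The promoters of the islet genes are shown because an interval overlapped each of them in 1 replicate. The RefSeq promoter window runs from 250 bases before to 50 bases after the start site in GRCm38.p6, the same assembly as mm10, and 4 of the 5 members were in the table. Only the 250 bases before the start are printed, 5′ to 3′ on the strand of the gene, chr13:116309689-116309938 (minus strand) for Isl1 and chr9:55540899-55541148 (plus strand) for Isl2. Capitals mark matches to CCAAT, TGACGTCA and the E-box CANNTG.
Isl1: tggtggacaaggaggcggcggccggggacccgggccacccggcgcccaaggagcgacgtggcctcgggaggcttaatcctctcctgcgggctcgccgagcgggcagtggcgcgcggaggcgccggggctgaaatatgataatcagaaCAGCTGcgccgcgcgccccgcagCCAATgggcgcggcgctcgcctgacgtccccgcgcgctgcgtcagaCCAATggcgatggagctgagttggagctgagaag
Isl2: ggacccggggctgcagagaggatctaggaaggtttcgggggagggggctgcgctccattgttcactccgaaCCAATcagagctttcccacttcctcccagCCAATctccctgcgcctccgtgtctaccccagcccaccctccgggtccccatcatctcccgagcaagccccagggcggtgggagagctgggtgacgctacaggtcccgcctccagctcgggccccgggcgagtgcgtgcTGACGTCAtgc
Both stretches are rich in G and C, with 71.2% in Isl1 and 66.8% in Isl2 against a median of 55.6% over 21263 promoters of protein-coding genes. The Pou4f1 and Pou4f2 promoters reached 78% and 70.8%. Neither islet promoter held CTAATG, a core of the ISL1 consensus, nor TAATTA, nor CTCATTAA, a core of POU4F sites, on either strand. These motifs occurred in 5.69%, 4.31% and 0.734% of all promoters of that length. The E-box, the kind of site bound by basic helix-loop-helix factors, was matched once in Isl1 at -103 to -98 from the start and not in Isl2, and 62.8% of promoters hold it. CCAAT was matched 2 times in each, at -80 and -34 in Isl1 and at -179 and -150 in Isl2, with 35.4% of promoters holding it on either strand. TGACGTCA was matched in Isl2 at -11 to -4, and 1.92% of promoters hold it. The last 2 motifs were chosen after the sequences were seen.

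At Isl1, which occupies chr13:116298270-116309688 on the minus strand, replicate 1 listed 9 intervals and replicate 2 listed 6. Their maximum signals ran from 4 to 40 with a median of 17 in replicate 1 and from 11 to 25 with a median of 18 in replicate 2. No other protein-coding gene reached into this window. None of these intervals had a maximum signal of 1, the lowest value, which 21.3% and 24.7% of the 2 whole lists had. The shared peak lay downstream of the gene, 4295 bp beyond its 3′ end and 15713 bp from the start site. In replicate 1 the interval was chr13:116293573-116293975, with a maximum signal of 40, the highest of the 31 intervals of that replicate in the 5 windows. Of genes with a span under 20 kb, 90.3% had a highest maximum signal of 40 or less in that list. By total signal, the coverage summed over its bases, the interval stood in the top 5.09% of its list. In replicate 2 the interval was chr13:116293487-116293711, with a maximum signal of 16, in the top 39.4%.

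The 2 intervals of the Isl1 shared peak overlapped by 139 bp, which is 34.5% of the first and 61.8% of the second. Coverage in replicate 1 was uneven, a term used where the total falls below 95% of the product of width and maximum. It came to 53.8% of that product, and the highest coverage was reached over 20 bp that lay outside the interval of replicate 2. Coverage in replicate 2 was flat at 16 over the whole interval. Toward the gene the replicates alternated without overlap: replicate 1 had an interval of maximum signal 17 in the top 5.39%, 3283 bp from the 3′ end, and replicate 2 one of maximum signal 25 in the top 17.2%, 2358 bp from it, 695 bp apart. Inside the gene an interval of replicate 1 (maximum signal 18) and one of replicate 2 (21) were 361 bp apart. Other intervals of replicate 1 lay farther from replicate 2, with another inside the gene (maximum signal 11) at 2607 bp and a pair farther downstream (14 and 4) at 11511 bp and 13618 bp.

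At the Isl1 start site only replicate 1 had an interval. It covered positions 17 to 339 after the start with a flat signal of 16, in the top 25.2% of its list, and overlapped 33 bp of the promoter window, none of them in the stretch printed for Isl1. The nearest interval of replicate 2 was 4739 bp upstream, with a maximum signal of 18. Upstream of the gene the replicates listed 2 and 3 intervals, none shared, with maximum signals of 19 and 22 in replicate 1 and of 18, 18 and 11 in replicate 2.

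At Isl2 (chr9:55538677-55547667, plus strand) lay the interval with the highest total signal of the 37 of replicate 2 in the 5 windows. No interval of replicate 1 overlapped it. Isl2 encodes the close paralogue of ISL1. The interval chr9:55540706-55541576 ran from -443 to 427 relative to the start site, covered the whole promoter window and had a maximum signal of 26. By total signal it ranked 370 among 158881 intervals, in the top 0.233%. Of genes with a span under 20 kb, 2.81% had an interval of such a rank in that list within 50 kb. Total signal grows with width, and this interval was 871 bp wide against a list median of 321 bp. By height it stood out less: 61.8% of those genes had a highest maximum signal of 26 or less in that list, and their median was 24. Coverage of the interval was uneven, at 77% of width times maximum. The highest coverage spanned 366 bp, from -441 to -76 relative to the start, which takes in most of the Isl2 sequence printed above, including both CCAAT matches and not TGACGTCA.

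The Isl2 start used was chr9:55541149, from the only RefSeq promoter entry for the gene. The gene span begins upstream of it, at chr9:55538677, and distances were taken from the former only. Replicate 1 had no interval over this Isl2 start. Its nearest one, chr9:55542021-55542433 with a flat signal of 20 in the top 6.16%, began 872 bp after the start and 444 bp beyond the end of the interval of replicate 2. A promoter window overlapped by an uneven interval was found for 4.25% of 17492 genes in replicate 2 and 5.93% in replicate 1. Among the 3572 genes whose promoter had at least the G and C content of Isl2, these shares were 8.73% and 11.7%. A gene with several promoter entries counted if any of them was overlapped, and by its entry richest in G and C. Further inside Isl2, replicate 1 listed an interval of maximum signal 23 and replicate 2 one of 13, 1817 bp apart. The body of Isl2 therefore held 2 intervals of each replicate and no overlap.

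Both shared peaks of the Isl2 window lay at neighbouring genes. The first, chr9:55512181-55512682, had maximum signals of 21 and 10, in the top 26.9% and 31.8% of the lists, and was flat in both. It ended 25995 bp from Isl2. Only its replicate 1 interval contained the start site of Etfa, which encodes a subunit of the mitochondrial electron transfer flavoprotein. The start is at chr9:55512243, and the replicate 2 interval began just upstream of Etfa, at chr9:55512258. The second, chr9:55589305-55590088, had maximum signals of 1 and 4 and lay inside Scaper, 41638 bp from Isl2. The other 6 intervals outside Isl2 all lay upstream of its gene span, with maximum signals of 3, 15 and 14 in replicate 1 and of 1, 1 and 11 in replicate 2.

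**Figure D2:**
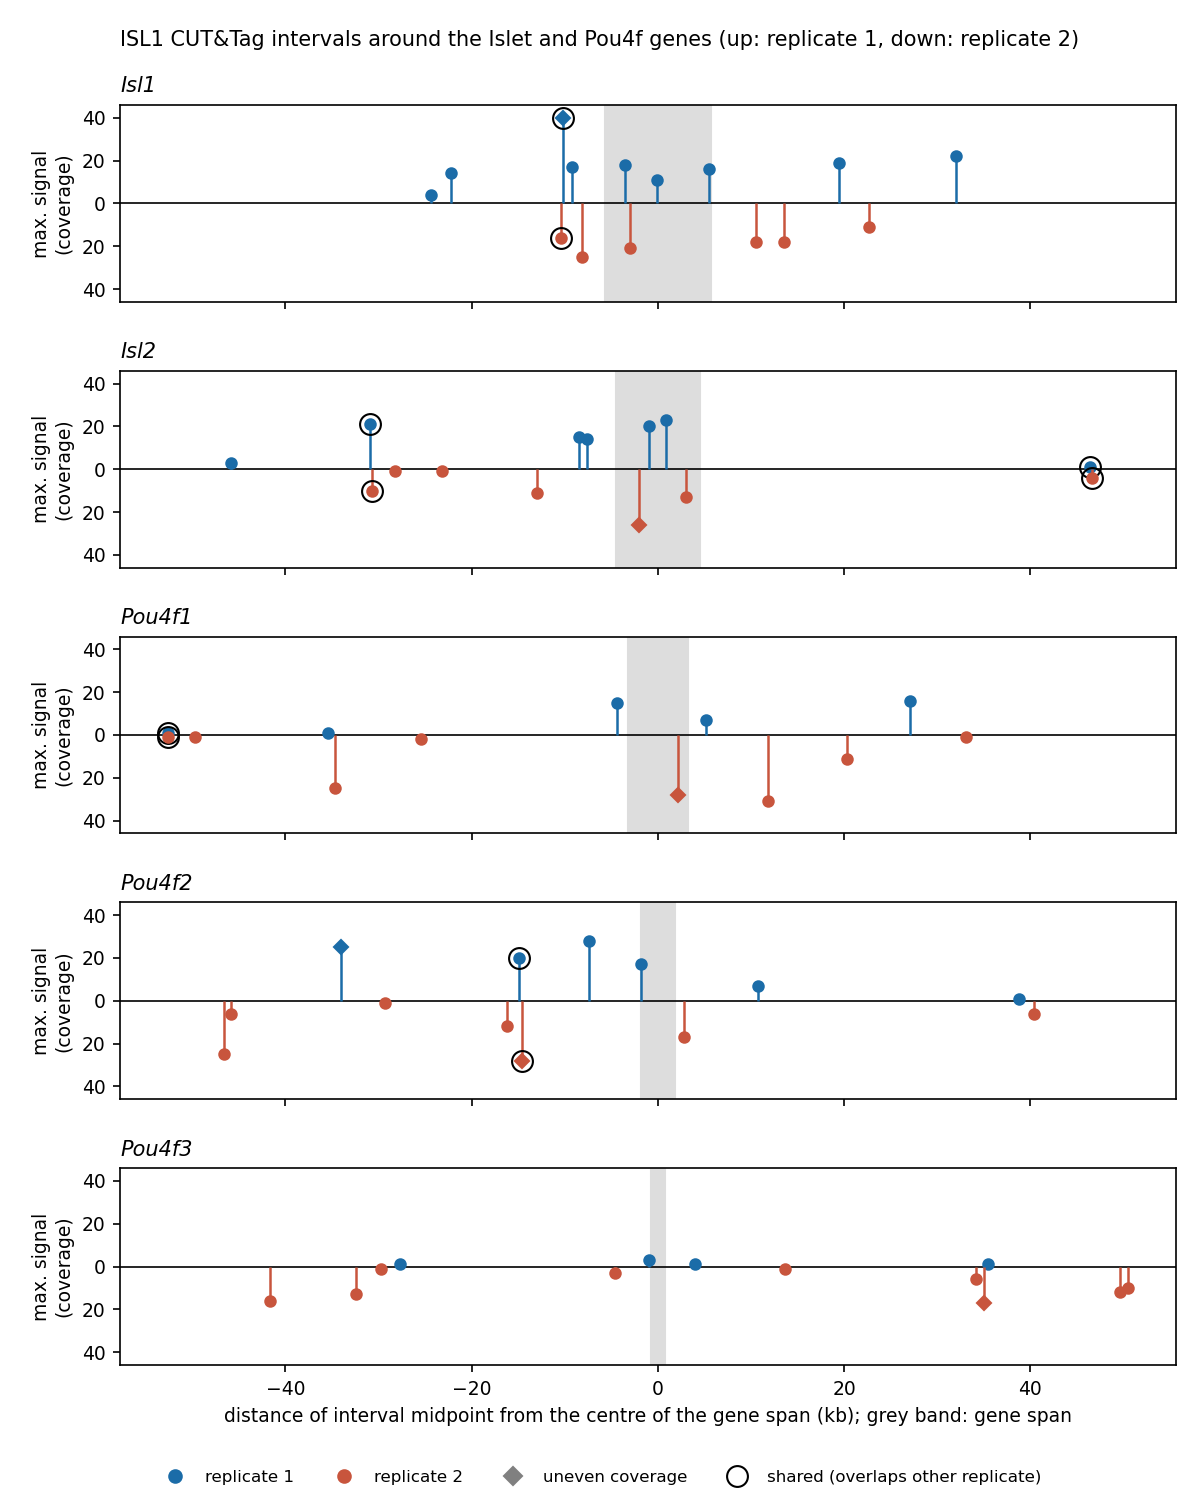
Maximum signal of each interval (vertical axis, coverage; upward for replicate 1, downward for replicate 2) against the distance of its midpoint from the centre of the gene span in kb, 1 panel per gene. Black circles mark the 5 shared peaks, diamonds the 6 intervals of uneven coverage, and the grey band the gene span; Pou4f3 has no circle, and its replicate 1 intervals reach only 3.

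Pou4f2 (chr8:78433009-78436647, minus strand), the POU factor that acts with ISL1 in newborn ganglion cells, had the most intervals of high rank. Replicate 1 listed 6 intervals with maximum signals from 1 to 28 and a median of 18.5, and replicate 2 listed 7, also from 1 to 28, with a median of 12. In the strongest 10% of the lists stood 4 of the 6 and 3 of the 7. Over all 5 windows 7 of 31 and 7 of 37 intervals stood there, so the Pou4f2 window held 7 of these 14. Among the 7, coverage was uneven in 1 interval of each replicate and flat or nearly flat in the others. One of those in replicate 2, with a maximum signal of 25, lay inside the neighbouring gene Ttc29. The share of genes with as many intervals in the strongest 10% was not computed. The summed total signal was 38948 in replicate 1 and 40045 in replicate 2, and 20.9% and 19.2% of genes with a span under 20 kb reached as much. Pou4f2 was the only member whose best interval stood in the top 2% in both lists, at 1.75% and 1.33%, and 16.3% and 15.5% of genes with a span under 20 kb had a best interval as good in replicate 1 and in replicate 2.

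The 2 best intervals of Pou4f2 were not the same place. In replicate 1 the best was chr8:78400476-78401003, downstream of the gene by 32006 bp, with uneven coverage and a maximum signal of 25, and the nearest interval of replicate 2 was 4421 bp away. In replicate 2 the best was chr8:78419934-78420421, 12588 bp beyond the 3′ end, uneven at 81% with a maximum signal of 28. This one overlapped chr8:78419685-78420050 of replicate 1, a flat interval of maximum signal 20 in the top 9.6%, and formed the shared peak. The overlap was 117 bp, 32% and 24% of the 2 intervals, and the 251 bp of highest coverage in replicate 2 lay outside the interval of replicate 1. As at Isl1, the highest coverage of the uneven interval lay outside its partner, whose own coverage was flat.

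Closer to Pou4f2 the replicates differed. Replicate 1 had an interval across the 3′ end of the gene, chr8:78432710-78433239, with a flat signal of 17 in the top 4.38%, and another 5424 bp beyond it with a maximum signal of 28 in the top 8.37%. Replicate 2 had one upstream, from -1215 to -794 relative to the start, with a flat signal of 17 in the top 8.71%. No interval of replicate 2 touched the gene span. Ttc29, the other protein-coding gene reaching into the window, held 2 intervals of replicate 2 with maximum signals of 25 and 6 and none of replicate 1.

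Pou4f1 (chr14:104461675-104468118, minus strand), the POU factor of later ganglion cells and sensory neurons, had 5 intervals in replicate 1 and 8 in replicate 2. Maximum signals ran from 1 to 16 with a median of 7 in replicate 1 and from 1 to 31 with a median of 6.5 in replicate 2. The interval nearest the start was chr14:104466777-104467409 of replicate 2, inside the gene from 590 to 1222 bp after the start. It was the least even of the 68 intervals, at 46.7% of width times maximum, with a maximum signal of 28 over the 270 bp nearest the start, and stood in the top 4.92%. Replicate 1 had none inside the gene. Its nearest interval, upstream from -2339 to -1702, had a flat signal of 7 and was 2291 bp from the interval of replicate 2.

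The only shared peak of Pou4f1, chr14:104412170-104412438, had a maximum signal of 1 in both lists, stood 92.8% and 85.4% of the way down the lists, and lay 49237 bp from the gene inside the span of the long noncoding RNA gene D130079A08Rik. Obi1, which encodes a ubiquitin ligase of replication origins, lay upstream and held 1 interval of replicate 1 (maximum signal 16) and 2 of replicate 2 (11 and 1). The highest maximum signal of replicate 2 here, 31, lay between Pou4f1 and Obi1, 8482 bp from Pou4f1, and the nearest interval of replicate 1 was 6261 bp from it.

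Pou4f3 (chr18:42394597-42396093) had no shared peak and the lowest signal of the 5 genes in replicate 1. Its 4 intervals there had maximum signals of 1, 3, 1 and 1, and 4.59% of genes with a span under 20 kb had a highest maximum as low in that list. In replicate 2 it had 9 intervals with maximum signals from 1 to 17 and a median of 10. The summed total signal was 2871 in replicate 1, reached by 93.8% of those genes, and 32653 in replicate 2, reached by 31%. Only 1 interval touched the gene, chr18:42394077-42394688 of replicate 1, with a flat signal of 3.

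The best interval near Pou4f3 was chr18:42430114-42430722 of replicate 2, 34021 bp away inside the span of the noncoding gene Gm31438. It was uneven, with a maximum signal of 17 in the top 4.6%. A replicate 1 interval of maximum signal 1 began 15 bp beyond its end and so did not count as shared. When gaps of up to 200 bp were allowed, this pair was the 1 added, and all 5 members then had a shared peak, as did 64.2% of all protein-coding genes under the same rule.

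**Figure D3:**
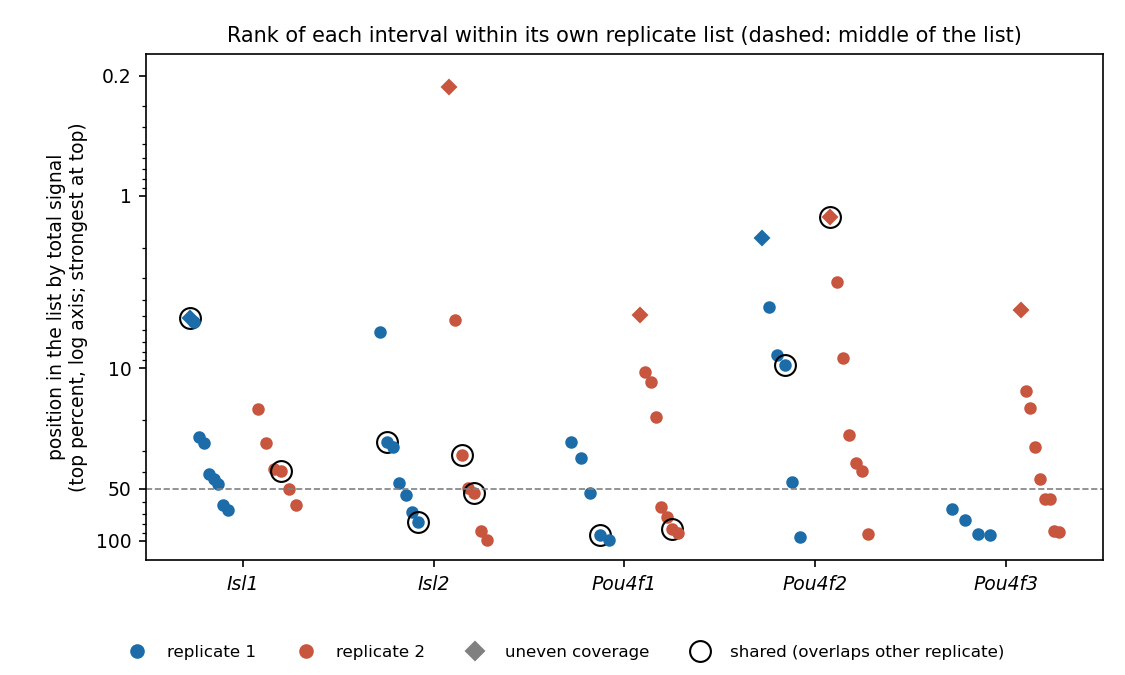
Position of each of the 68 intervals in its own list by total signal (vertical axis, top percent on a log scale, strongest at the top) for the 5 genes, with replicate 1 in blue and replicate 2 in red. Pou4f2 has intervals in the top 2% in both replicates, Isl2 has one at 0.233% in replicate 2 only, and all 4 replicate 1 intervals of Pou4f3 lie below the middle of the list.

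The order of the genes by summed total signal differed between the lists. In replicate 1 it was Isl1 (42075), Pou4f2 (38948), Isl2 (26437), Pou4f1 (12657) and Pou4f3 (2871). In replicate 2 it was Pou4f2 (40045), Isl2 (35293), Pou4f3 (32653), Pou4f1 (29579) and Isl1 (21942). The medians of genes with a span under 20 kb were 21704 and 23812. Isl1 was thus the highest member in replicate 1 and the lowest in replicate 2, and Pou4f2 and Isl2 stood above the median in both. With a value per gene and replicate, and no read depth given, sizes were not compared between lists.

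Coverage was uneven in 2 of the 31 intervals of replicate 1 and 4 of the 37 of replicate 2, or 6.45% and 10.8%, against 6.01% and 5.79% of the whole lists. Each member had at least 1 of these 6 intervals, 2 at Pou4f2 and 1 at each other gene. Coverage was flat, with the total equal to width times maximum, in 59 of the 68 intervals. That was 87.1% in replicate 1 and 86.5% in replicate 2, against 82% and 83.3% of the whole lists. An uneven interval in at least 1 replicate lay within 50 kb of 58.5% of all protein-coding genes and of 52.5% of those with a span under 20 kb. No shared peak was uneven in both lists, which 7.53% of all protein-coding genes had. The uneven intervals of Isl1 and of Pou4f2 in replicate 2 overlapped the other list. The other 4 lay 15 bp (Pou4f3), 444 bp (Isl2), 2291 bp (Pou4f1) and 4421 bp (Pou4f2) from its nearest interval. Over the whole lists, 35.8% of uneven intervals of replicate 1 and 28.6% of replicate 2 overlapped the other list.

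Each of the 4 members with a known start site had an interval within 1 kb of it in at least 1 replicate. The distance from the start was 17 bp in replicate 1 and 4739 bp in replicate 2 for Isl1. For Isl2 it was 872 bp and 0 bp, for Pou4f1 1702 bp and 590 bp, and for Pou4f2 3408 bp and 794 bp. The medians over 17492 genes were 3645 bp and 3445 bp. These genes had 21263 promoter entries, and each of the 4 members had 1. A gene with several entries was counted by its nearest start, by an overlap at any entry and by its entry richest in G and C. Such genes had more ways to be counted than the members. An interval of either replicate within 1 kb of a start was found for 50.3% of the 17492 genes. The share was 73.2% for those with promoters at least as rich in G and C as that of Isl2, to which all 4 members belong. Only Isl2 had one in both replicates, against 16.4% and 30.1%. An uneven interval within 1 kb of the start was found at Isl2 and Pou4f1, 2 of the 4, against 11.6% and 22.4% of these classes of genes. The limit of 1 kb was chosen after the distances were seen. Within the promoter window itself 2 of the 4 had an interval in either replicate, against 32.1% of all genes and 53.9% of the G and C rich ones, and none in both, against 7.29%.

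**Figure D4:**
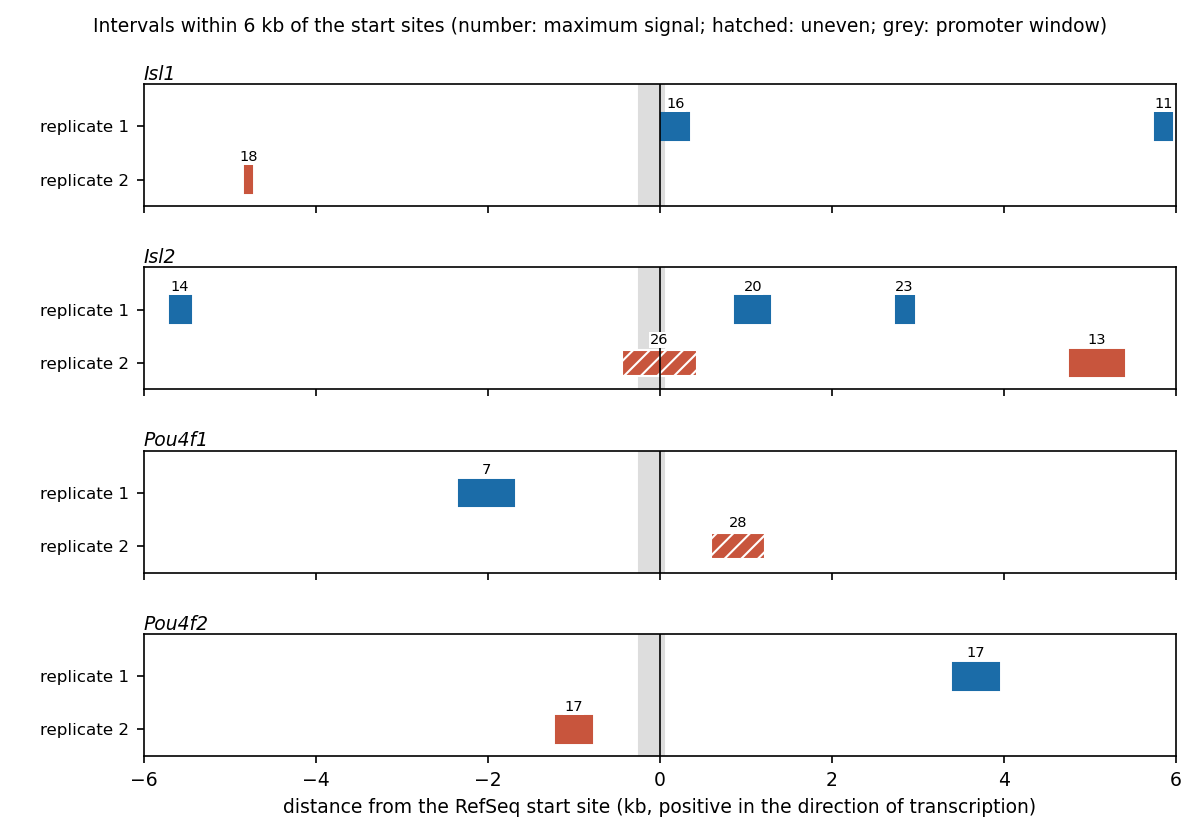
Intervals within 6 kb of the RefSeq start sites of 4 members (horizontal axis, kb in the direction of transcription), with replicate 1 above and replicate 2 below in each panel. Numbers give the maximum signal, hatching marks uneven coverage and grey the promoter window. An interval of replicate 2 spans the Isl2 start, one of replicate 1 begins 17 bp after the Isl1 start, and no bars of the 2 replicates overlap.

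The overlap required changed which genes had a shared peak. With a reciprocal overlap of 50%, 2 of the 5 peaks remained, the weak one of the Isl2 window inside Scaper, whose intervals overlapped by 70.7% and 68.9%, and that of Pou4f1 with a maximum signal of 1, at 100% and 66.2%. Those at Isl1, Pou4f2 and Etfa were lost. Under that rule 31.9% of all protein-coding genes had a shared peak. With windows of 10 kb only the Isl1 peak was counted (30.2% of all protein-coding genes had one), and with 25 kb those of Isl1 and Pou4f2 (41.4%).

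Other genes of the ganglion cell network were counted in the same way, beside the 55.4% of all protein-coding genes. Longer genes have longer windows, so the window is given beside each gene where it is over 150 kb. Among factors upstream of ganglion cell fate 12 of 14 had a shared peak within 50 kb, with a median of 2.5, led by Pax6 with 10, Sox2 with 7 and Six3 with 6, which act in retinal progenitors. Of LIM-homeodomain factors outside the islet pair 6 of 10 had one, with a median of 1, and Lhx4 (window of 154 kb), Lhx9 and Lmx1a (261 kb) had 3 each. Of LIM cofactors, through which LIM-homeodomain proteins form complexes, 8 of 9 had one, with Lmo1 at 5, Ldb2 (464 kb) at 3 and Ldb1, the common bridging protein, at 2. Among factors downstream of ISL1 and POU4F2 or alongside them 16 of 26 had one, with 5 each at Barhl2, Ebf1 (490 kb) and Klf7 (193 kb). Of these 5, the maximum signal was above 1 in both lists for 4, 3 and 3. Among ganglion cell differentiation genes 9 of 15 had one, with Cntn2, Gap43 (192 kb) and Nefl at 3 each. The median was 1 for the cofactors, the downstream factors and the differentiation genes. Genes of other retinal cells gave 11 of 15, with a median of 2, and 6 at Thrb (481 kb) and 3 each at Otx2 and Prox1 (153 kb). Genes of other tissues gave 6 of 12, with a median of 0.5, and 4 at Myog, 3 at Ptprc (213 kb) and 1 at Alb. Of all protein-coding genes 41.5% had a shared peak with a maximum signal above 1 in both lists. So did 11 of 14 upstream factors, 5 of 10 LIM-homeodomain factors, 6 of 9 cofactors and 13 of 26 downstream factors. So did 8 of 15 differentiation genes, 10 of 15 genes of other retinal cells and 4 of 12 of other tissues. Under this limit Cntn2, Lmx1a and Ldb2 kept 1 peak each, Myog 2 and Alb 0. Sox2, Six3, Ldb1, Gap43, Thrb and Prox1 kept all.

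Of all protein-coding genes, 7.53% had a shared peak uneven in both lists within 50 kb. Such peaks were near 5 of the 14 upstream factors, 3 of the 26 downstream factors, 2 of the 15 genes of other retinal cells and 1 of the 9 cofactors. None was near the 10 LIM-homeodomain factors, the 15 differentiation genes, the 12 genes of other tissues or the 5 members. At such a share a list this small can hold none, so this does not set the members apart. The median numbers of intervals per window were 6 and 7 for the members in replicates 1 and 2, 6 and 7 for all genes with a span under 20 kb, 11.5 and 11 for the upstream factors and 10 and 8.5 for the LIM-homeodomain factors. Windows of the upstream factors had a median of 105 kb, close to the 106 kb of the members, and those of the LIM-homeodomain factors had 124 kb.

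The counts around each member were matched exactly by unrelated genes. Likeness was the Euclidean distance over the logarithms of 5 numbers from the 2 samples: intervals per replicate, shared peaks and uneven intervals per replicate. At a distance of 0 stood 11 genes for Isl1 (first in alphabetical order Arl3 and Cyp4f39), 3 for Isl2 (Plpp6 and Stoml2), 21 for Pou4f1 (Acmsd and Adcy3), 13 for Pou4f2 (1700066B19Rik and Ap1s3) and 20 for Pou4f3 (Coq4 and Gal3st4).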

How the data were processed

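CUT&Tag against ISL1 was measured in 2 samples of E13.5 retina. The authors deposited 1 peak list per sample without a header, whose signal columns hold whole-number coverage: the total over an interval and its maximum. Tools listed in the submitters' processing notes are SEACR, MACS2, Bowtie2 and FastQC, with mm10 as the build and no versions or roles. Not given in the sources used here are the threshold, control track, duplicate removal and caller, and read depth is unknown, so signal served only within a list. Amplified copies of 1 fragment, if kept, raise an interval's signal. Uneven coverage needs more than 1 distinct fragment, and flat coverage does not, so the height of a flat interval may count such copies. This was not tested.

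Gene spans, start sites and promoter sequences came from RefSeq (GRCm38.p6). Exons were not used here. Coordinates are 1-based. Overlaps, ranks and counts were computed with Python 3.11.15, pandas 2.3.3 and numpy 2.4.6, and the counting was tested on simulated data. Genes named were the 5 members, protein-coding genes reaching into their windows, up to 3 genes per list with most shared peaks, and the 2 genes most like each member. Noncoding genes were named after their values were seen. The members and the 7 lists were chosen with earlier results of these data known, and 1 gene of the lists is not reported here.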

Additional observations from a re-analysis of the deposited data

How the results depend on the processing

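The number of shared peaks near the 5 genes was 5. It fell to 1 and 2 with windows of 10 kb and 25 kb, to 2 with a reciprocal overlap of 50%, to 3 when only intervals with a maximum signal above 1 were kept and to 3 with the stronger 50% of each list. It was 7 with 100 kb, 6 with gaps of up to 200 bp and 5 without pairs of identical ends. The 4 members with a shared peak became 1 and 2 with windows of 10 kb and 25 kb and 2 with a reciprocal overlap of 50%, and 3 to 5 under the other settings that use both lists. The share of all protein-coding genes with a shared peak moved with these settings, from 55.4% to 30.2%, 41.4% and 31.9% in that order, and to 28.4% with the stronger 50% of each list, where 3 members had one. That share was 73.5% with 100 kb and 64.2% with gaps of up to 200 bp, where 4 and 5 members had one. With a maximum signal above 1 it was 41.5%, and without pairs of identical ends 51%, where 3 and 4 members had one. None of the 5 peaks had identical ends, so that last setting could not change the count. Shared peaks uneven in both lists numbered 0 under each setting run on both lists, and 7.53% of all protein-coding genes had one at the main settings. Only the window of 100 kb and the gaps of up to 200 bp could have raised this count. The other settings, including a limit of 90% for uneven coverage, keep part of the same peaks and could only return 0. With either list left out nothing can be shared, and the values are then intervals of the other list: 31 to 37 intervals, 5 members with an interval, and 2 to 4 uneven intervals. No paired analysis was possible because there is 1 group. Precision is limited by the number of samples, 2, and by the unknown depth.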
